A study of Homo sapiens with 87 samples.

Results

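Interferon-stimulated genes are genes that cells transcribe when interferon binds its receptor, and 41 of them were followed through every group of both gene-level count tables of a study of the BAF complex in HAP1 cells. HAP1 is a human cell line with a nearly haploid genome that descends from a chronic myeloid leukaemia. The BAF complex, also called SWI/SNF, uses ATP to slide or evict nucleosomes. The members were chosen by gene symbol, with earlier results of these data known, and all 41 are among the 35438 genes of the tables. Their shares set against all genes below are thus not those of a list chosen blind to the data. Of the 41, 33 passed the filter on low counts in the knockout table, where 16159 genes passed, and 29 passed in the double-loss table, where 14601 genes passed.

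The knockout table held 75 poly-A RNA libraries in 25 groups of 3. The groups were wild-type HAP1 (clone C631) and 24 knockout clones of 22 genes: ACTB, ARID1A, ARID1B, ARID2, BCL11A, BCL11B, BCL7A, BCL7B, BRD7, BRD9, DPF1, DPF2, DPF3, PBRM1, PHF10, SMARCA2, SMARCA4, SMARCC1, SMARCC2, SMARCD1, SMARCD2 and SMARCD3. ARID1A (clones 618-10 and 618-3) and SMARCA4 (clones 2878-4 and 2878-6) had a pair of clones and every other gene had 1, so that for these other genes the knockout and whatever else distinguishes the clone cannot be told apart. The double-loss table held 12 libraries in 6 groups of 2: wild-type, ARID2-knockout and SMARCA4-knockout cells with a control knockdown, ARID2-knockout cells with SMARCA4 knocked down, SMARCA4-knockout cells with ARID2 knocked down, and wild-type cells with both knocked down. The labels name the knockdown reagent as sh in one field and si in another. No label names an interferon treatment in any group. The labels do not say that replicates were separate cultures, so p-values measure the spread between these libraries, which may be technical. Neither count table lists a 0: the lowest value is 1, at which 39.9% to 47.2% of the genes of a knockout library and 45.5% to 49.1% of those of a double-loss library stood. A listed 1 may therefore stand for 0 reads. Whether other counts carry the same offset is not given in the sources used here. Intervals and folds below for very low counts take the counts as listed.

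In the pathway that these genes are known for, interferon binds a pair of receptor chains, the kinases JAK1 and TYK2 phosphorylate STAT proteins, and these join IRF9 in the factor ISGF3. ISGF3 binds the interferon-stimulated response element (ISRE) in promoters, whereas the gamma-activated sequence is the element through which interferon gamma acts. The products include RNA sensors, enzymes that trigger RNA decay, proteins that hold viral RNA or block viral entry and release, and the ubiquitin-like protein ISG15. Many of these genes also have a basal level in cells that met no interferon.

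Promoter windows from RefSeq (GRCh38.p14; 250 bases before to 50 after the gene start) were matched for 33 of the 41 members; OAS2, OASL, MX2, IFIT2, IFITM2, IRF7, USP18 and TRIM22 had no entry. A pair of GAAA with any 2 bases between them, searched on both strands as the core of an ISRE, stood in 21 of the 33 windows (63.6%) and in 1255 of all 35116 windows (3.57%). The letters TTC and GAA with any 3 bases between them, which read the same on both strands and were searched as a gamma-activated sequence, stood in 10 of the 33 (30.3%) and in 7.66% of all windows. Of the genes described below as moving together, 6 of 9, 4 of 4 and 2 of 2 windows held the ISRE letters, and of the tested members in no set 7 of 12 did. The windows of 5 genes named in the results are shown, in lower case with the ISRE letters in capitals, each on the strand of its gene. IFIT1 and IFITM1 are in sets with their genomic neighbours, and BST2 is in no set. PARP9 and DTX3L are a tightly correlated pair on opposite strands, of which the DTX3L window held the letters and the PARP9 window did not. These windows do not overlap, and sequence outside them was not searched.
IFIT1, chr10:89392373-89392672, plus strand: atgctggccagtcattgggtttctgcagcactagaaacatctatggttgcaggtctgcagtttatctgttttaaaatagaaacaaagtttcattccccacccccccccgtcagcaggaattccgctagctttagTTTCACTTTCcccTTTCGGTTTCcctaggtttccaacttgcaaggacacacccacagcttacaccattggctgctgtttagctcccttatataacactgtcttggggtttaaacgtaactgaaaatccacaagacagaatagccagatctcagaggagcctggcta
IFITM1, chr11:313790-314089, plus strand: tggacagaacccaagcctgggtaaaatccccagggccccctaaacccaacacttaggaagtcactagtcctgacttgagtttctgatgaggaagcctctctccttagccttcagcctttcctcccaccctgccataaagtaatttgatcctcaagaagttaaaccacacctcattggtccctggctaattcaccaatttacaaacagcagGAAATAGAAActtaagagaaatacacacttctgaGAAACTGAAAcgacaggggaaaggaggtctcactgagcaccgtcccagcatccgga
BST2, chr19:17405581-17405880, minus strand: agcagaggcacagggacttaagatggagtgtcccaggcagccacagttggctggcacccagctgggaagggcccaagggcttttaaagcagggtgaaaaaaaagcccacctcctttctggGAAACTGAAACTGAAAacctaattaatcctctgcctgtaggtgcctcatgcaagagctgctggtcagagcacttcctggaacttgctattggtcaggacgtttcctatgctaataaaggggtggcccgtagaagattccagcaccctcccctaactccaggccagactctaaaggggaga
DTX3L, chr3:122564088-122564387, plus strand: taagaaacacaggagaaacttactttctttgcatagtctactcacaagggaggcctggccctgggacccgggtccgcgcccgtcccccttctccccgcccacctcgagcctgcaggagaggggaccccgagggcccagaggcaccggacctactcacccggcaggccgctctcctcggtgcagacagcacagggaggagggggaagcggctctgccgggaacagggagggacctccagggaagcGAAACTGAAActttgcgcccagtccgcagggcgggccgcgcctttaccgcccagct
PARP9, chr3:122564735-122565034, minus strand: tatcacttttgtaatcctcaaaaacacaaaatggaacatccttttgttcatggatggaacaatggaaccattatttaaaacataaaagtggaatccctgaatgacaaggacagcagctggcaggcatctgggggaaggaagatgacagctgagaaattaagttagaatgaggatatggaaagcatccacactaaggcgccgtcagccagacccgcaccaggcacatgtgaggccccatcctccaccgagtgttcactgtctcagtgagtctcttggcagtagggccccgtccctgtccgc
The first letter of each match lay at -116 and -103 from the start of IFIT1, at -130 and -124 from that of BST2 (an overlapping pair), at -40 and -6 from that of IFITM1 and at -6 from that of DTX3L. A match of letters is a description and no evidence of binding.

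Levels in wild-type cells covered a wide range. Per length, as log2 TPM in the authors' deposited table (mean ± SD, n = 3), BST2, the tetherin that holds budding virus on the cell surface, was highest at 7.71 ± 0.10, followed by TRIM22, a ubiquitin ligase of the TRIM family, at 6.39 ± 0.12 and PARP14, an ADP-ribosyltransferase, at 5.41 ± 0.19. USP18, which removes ISG15 and restrains interferon signalling, stood at 5.01 ± 0.07, and the RNA binder IFIT5 and HERC6, a HECT-type ligase, both stood at 4.78, with SDs of 0.03 and 0.09. STAT2 (4.58 ± 0.09), DTX3L (4.58 ± 0.10) and HERC5 (4.56 ± 0.03) lay within their spread of each other. The 8 members that did not pass the filter in the knockout table (OAS1, OASL, MX2, IFI44, IFI44L, RSAD2, SAMD9L and XAF1) were below 1 CPM (the count scaled to the library total) in every knockout library, the highest value being 0.974 CPM for OAS1 in an ARID1B library. MX1, IFITM3, SAMD9 and EPSTI1 passed in the knockout table only. For every gene here, fewer expressing cells and less RNA per cell cannot be told apart.

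Knockout libraries held 14917644 to 29993652 counts, and double-loss libraries held 9144150 to 19789622. The targeted gene was lower in its own clone, with no overlap of libraries, in 20 of 24 clones, and 14 passed the test below; it read higher than wild type in 2, BCL11A (by 0.11 on the log2 scale) and BCL11B (by 0.45). Of 12 immune-cell markers, 10 were below 1 CPM in every library, and the sum of the list ran from 1.98 to 11.5 CPM over the knockout libraries. The sums of the other marker lists ran from 16.9 to 168.6 CPM for fibroblasts (COL1A1 highest, in SMARCA4 2878-4), 5.25 to 200.1 for the erythroid and myeloid lineage (HCLS1 highest, in SMARCA2) and 1.19 to 9.40 for A549 lung cells, and their part in the results was not tested. In SMARCC2, fold changes were higher for transcripts of higher GC content (Spearman's rho 0.459 over 14485 genes, which are not independent replicates), against -0.10 to 0.21 in the other clones.

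Interferon-stimulated genes rose in some clones and fell in others, and no clone moved all tested members in 1 direction. A gene was called higher or lower at a Benjamini-Hochberg adjusted p of at most 0.05 over all genes tested (edgeR's quasi-likelihood test, the source of every adjusted p below) and a change of at least 1 on the log2 scale. Over the 24 clones, which all share the 3 wild-type libraries, 47 of 792 member tests were called higher (5.93%, against 2.46% of all genes tested) and 62 lower (7.83%, against 2.24%). The 47 included 4 calls of SAMD9, 2 of MX1 and 1 of IFITM3. These genes averaged 0.21, 0.16 and 0.35 CPM in wild type, so a fall could hardly be called, and none was. The median log2 fold change was -0.01 over the members and -0.01 over all genes tested. In 107 of the 109 calls the libraries of the clone and of wild type did not overlap (98.2%, against 97.4% of the calls over all genes). Of the 109, 72 held with each library left out in turn. Every clone had at least 1 call. In all, 22 members were called in at least 1 clone (66.7%, against 25.3% of all genes tested). Of the 33 tested members, 9 were called in both directions (27.3%, against 7.04% of all 16159 genes tested). Among genes called at all, this was 9 of 22 members and 1137 of 4087 of all genes. Of the 9, only OAS2, IFIH1, IFITM1 and EPSTI1 kept at least 1 call each way in every alternative run. IFIT2 kept no lower call there, and IFIT3, IFI6, IFITM2 and CMPK2 kept no higher call. The count over all genes was not put through these runs.

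**Figure D1:**
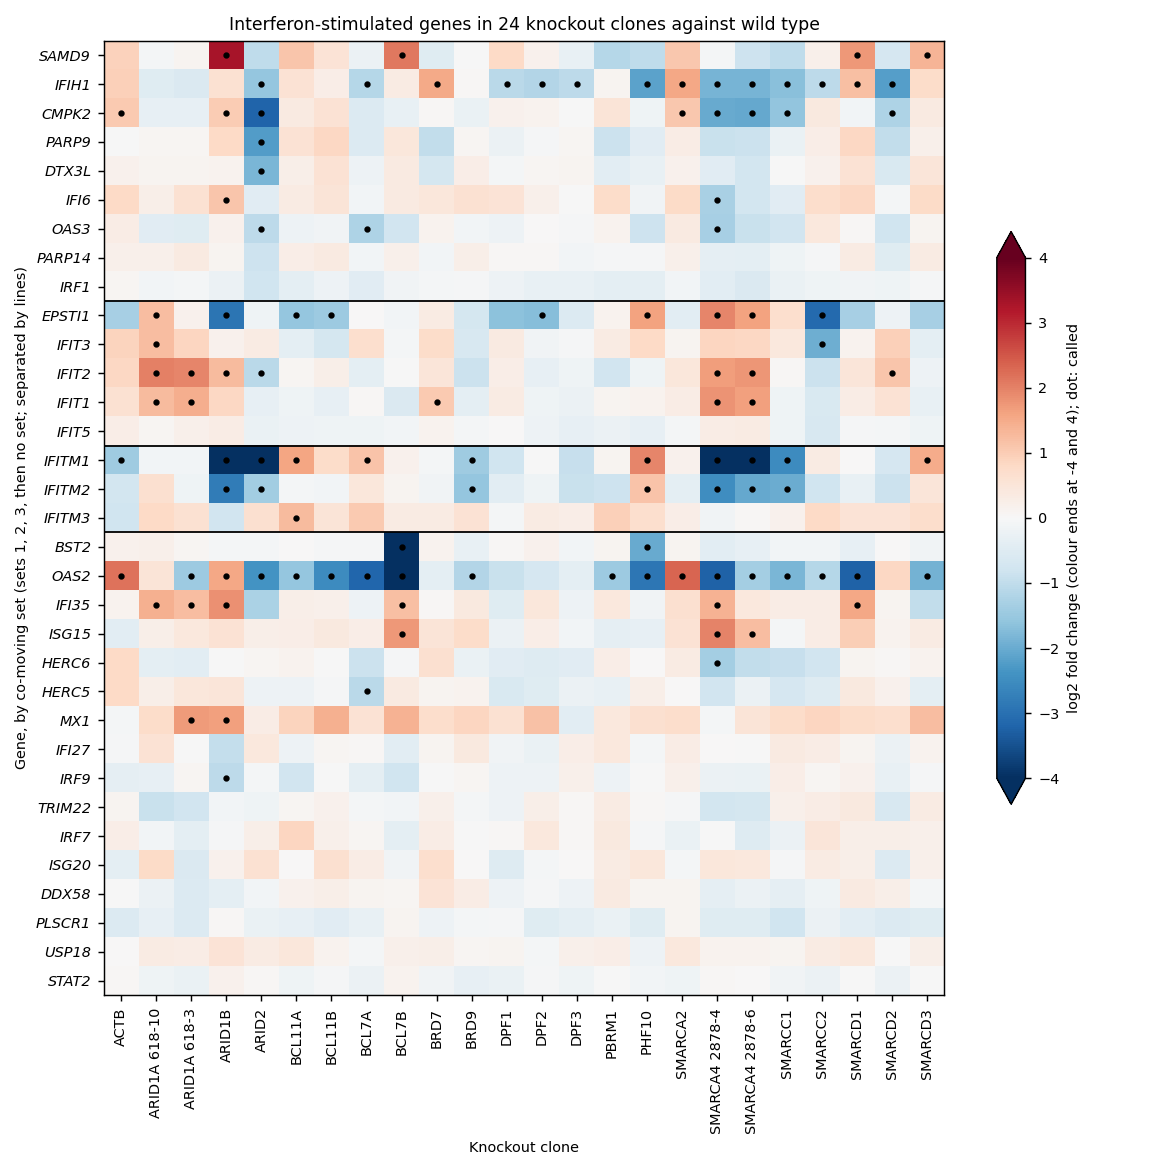
Log2 fold change of the 33 tested members (rows, by co-moving set) in each of the 24 knockout clones (columns) against wild type; red is higher, blue lower, and a dot marks a call. Rows with many calls are OAS2 (18), IFIH1 (14) and IFITM1 (11).

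The calls were concentrated in few genes. OAS2, which makes the 2-5A messenger that activates RNase L, was called in 18 clones (3 higher, 15 lower), IFIH1, the sensor of long double-stranded RNA known as MDA5, in 14 (3 higher, 11 lower) and IFITM1, a membrane protein that blocks viral fusion, in 11 (4 higher, 7 lower), together 43 of the 109 calls. Among clones, SMARCA4 2878-4 had 5 members higher (15.2%, against 5.99% of all genes) and 8 lower (24.2%, against 5.28%). The ARID1B clone had 7 higher (21.2%, against 3.46%) and 4 lower (12.1%, against 3.4%). Its higher calls included SAMD9 and MX1, for which a fall could hardly be called. The higher calls of CMPK2, IFI6 and MX1 and the lower calls of IRF9 and EPSTI1 were each lost without at least 1 single library. The ARID2 clone had 9 lower (27.3%, against 3.56%) and 0 higher (against 1.97%). Its calls of IFIT2, IFITM2 and OAS3 were each lost in the same way. At the other end, 11 tested members were called in no clone: DDX58 (the sensor RIG-I), IFIT5, IFI27, ISG20, STAT2, IRF1, IRF7, PARP14, USP18, TRIM22 and PLSCR1. In their 264 tests edgeR's quasi-likelihood test and DESeq2 each called 0, while 76 had an unadjusted p under 0.05 and 37 an adjusted p of at most 0.05, none reaching a change of 1 on the log2 scale (largest 0.957).

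The other clones are given with the numbers of members called higher and lower among the 33 tested and, in brackets, the percentages of all genes called each way. The SMARCA4, ARID1A and SMARCA2 clones had 4 and 5 for SMARCA4 2878-6 (5.53% and 4.72%), 5 and 0 for ARID1A 618-10 (3.84% and 2.44%), 4 and 1 for ARID1A 618-3 (3.53% and 2.57%) and 3 and 0 for SMARCA2 (0.774% and 1.42%). PHF10 and the BCL clones had 3 and 3 for PHF10 (1.5% and 1.18%), 3 and 2 for BCL7B (3.14% and 2.98%), 1 and 4 for BCL7A (2.28% and 1.26%), 2 and 2 for BCL11A (2.48% and 1.66%) and 0 and 2 for BCL11B (2.19% and 1.62%). The SMARCC and SMARCD clones had 0 and 5 for SMARCC1 (3.56% and 2.53%), 0 and 4 for SMARCC2 (3.29% and 3.2%), 3 and 1 for SMARCD1 (2.01% and 2.57%), 1 and 2 for SMARCD2 (1.44% and 1.36%) and 2 and 1 for SMARCD3 (1.75% and 1.72%). Among the rest there were 2 and 1 for ACTB (3.17% and 1.92%), 2 and 0 for BRD7 (1.62% and 1.94%), 0 and 3 for BRD9 (1.34% and 1.94%) and 0 and 1 for PBRM1 (1.25% and 1.71%) and, for the DPF family, 0 and 1 for DPF1 (0.668% and 0.823%), 0 and 2 for DPF2 (2% and 0.984%) and 0 and 1 for DPF3 (0.365% and 0.978%). Among these clones, SMARCA4 2878-6, PHF10, BCL7B and BCL11A had at least 2 calls each way and shares above those of all genes. In BCL11A this rested on a higher call of IFITM3 and a lower call of EPSTI1 (3 counts in each library). Each was lost without any 1 BCL11A library, and EPSTI1 stood at -0.63 without wild-type replicate 2. The shares also lay above those of all genes both ways in ARID1A 618-3, BCL7A, SMARCD1, SMARCD2, SMARCD3 and ACTB. In each of these, however, 1 direction rested on 1 call. At 33 members, 1 call is 3.03%, which by itself exceeds any lower share of all genes.

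Across clones, the tested members fell into 3 sets that moved together and a remainder in no set, under the settings given next. Sets were defined by Pearson's r over the 25 group means of log2 CPM, average linkage and a tree height of 0.5, with at least 3 genes a set. The first set held 9 genes (IFIH1, OAS3, IFI6, IRF1, CMPK2, SAMD9, PARP9, PARP14 and DTX3L; median r 0.634 over 36 pairs), the second held IFIT1, IFIT2, IFIT3, IFIT5 and EPSTI1 (median r 0.655 over 10 pairs) and the third IFITM1, IFITM2 and IFITM3 (median r 0.566 over 3 pairs). These values describe the grouping that chose the sets. Membership shifted at tree height 0.4, with 1 clone a gene (not planned beforehand) and on the authors' log2 TPM, which lacks SMARCC2. There the first set kept 8, 8 and 9 of its 9 genes together and the second 3 of 5 each time. The third kept 2, 3 and 2 of its 3 genes, and 2 is below the minimum for a set. At tree height 0.6 all 3 sets kept every gene. Over all 528 member pairs the median r was 0.067, and 60 pairs (11.4%) exceeded 0.5, against 4.05% of pairs in an evenly spaced sample of the genes tested. In the 6 group means of the double-loss table, which the grouping did not use, the median r was 0.505 for the 8 tested genes of the first set (from -0.369 to 0.982), 0.697 for the 4 of the second (from 0.235 to 0.886) and 0.716 for the 1 testable pair of the third. Over all members it was 0.062 (from -0.997 to 0.982). Those groups carry losses of SMARCA4 and ARID2, as do clones on which the first set partly rests, so they are no independent set of conditions. Deviations of the knockout libraries from their group mean had a median r of only 0.054, 0.026 and -0.05 in the 3 sets.

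**Figure D2:**
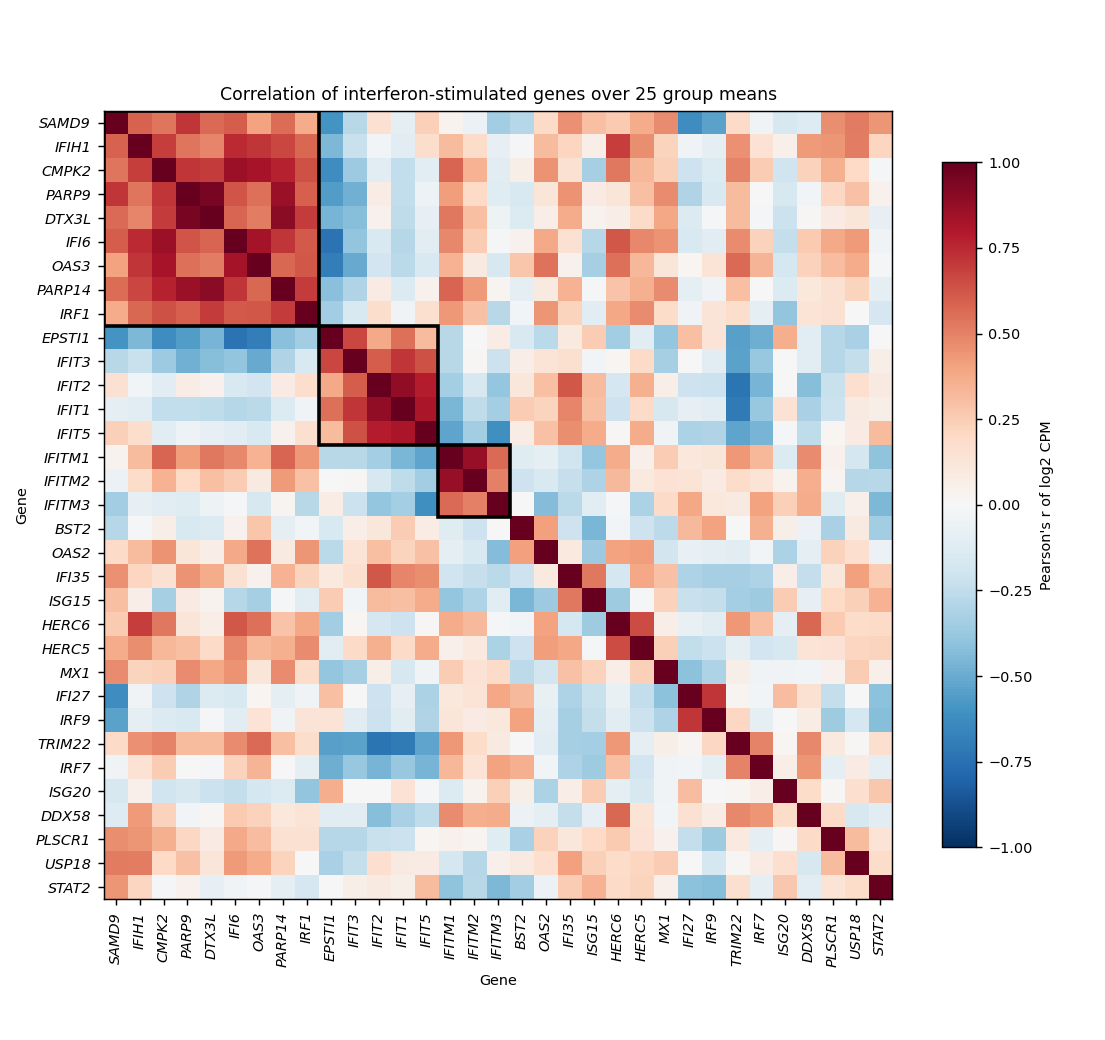
Pearson's r between the 33 tested members over the 25 group means of log2 CPM in the knockout table, with the 3 sets boxed. The boxed blocks have a median r of 0.634, 0.655 and 0.566.

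Pairs of members close to each other in the genome had a higher median r than other member pairs. Of 13 pairs of tested members on the same chromosome with at most 2 protein-coding genes between them, all 13 had r above 0.5 (median 0.718), against 47 of the 515 other pairs (9.13%, median 0.059). The 13 came only from the IFIT, IFITM, PARP9, HERC and OAS clusters and share genes, so they are not independent cases. Neighbouring pairs among all genes tested were not examined. In the double-loss table r was 0.136 for OAS2 and OAS3 and 0.235 for IFIT1 and IFIT5. For the other neighbouring pairs with a value there it ran from 0.414 to 0.966. PARP9 and DTX3L, whose products form an ADP-ribosylation and ubiquitin-ligase complex, had the highest r of all member pairs at 0.946, and PARP14, from the same cluster, had 0.905 with DTX3L and 0.862 with PARP9. Among the IFIT genes r ran from 0.606 for IFIT2 and IFIT3 to 0.888 for IFIT1 and IFIT2. IFITM1 and IFITM2 had 0.872, HERC5 and HERC6, which are in no set, 0.652, and OAS2 and OAS3 0.541. Some pairs that are not neighbours had a higher r than most neighbours, such as IFI6 and CMPK2 (0.854) and OAS3 and IFI6 (0.83). Whether the counting used strand is not given in the sources used here, so reads of PARP9 and DTX3L cannot be told apart where their transcripts overlap, and IFITM1, IFITM2 and IFITM3 are near-identical paralogs between which reads can be split.

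The 9-gene set was lowest in the ARID2 clone, where its mean lay at -1.30 from wild type on the log2 scale, and in SMARCA4 2878-4 (-0.91), and highest in the ARID1B clone (0.71) and the SMARCA2 clone (0.56). IFIH1 read 2.02, 1.75 and 1.90 CPM in the wild-type libraries, 0.385, 0.707 and 0.800 in ARID2, 0.506, 0.418 and 0.606 in SMARCA4 2878-4, 3.95, 2.74 and 2.08 in ARID1B and 6.03, 5.06 and 5.35 in SMARCA2. CMPK2, a mitochondrial nucleotide kinase, read 1.18, 1.12 and 0.633 CPM in wild type, 0.0962, 0.109 and 0.0941 (2 counts each) in ARID2, 0.225, 0.279 and 0.187 in SMARCA4 2878-4, 1.41, 1.90 and 2.505 in ARID1B and 2.145, 1.67 and 2.32 in SMARCA2. For both genes the ARID2 and SMARCA4 2878-4 libraries lay below all wild-type libraries and the ARID1B and SMARCA2 libraries above them. In ARID2, IFIH1 fell by 1.56 on the log2 scale (SE 0.27, adjusted p 9.93e-06), and CMPK2 was 9.71 times lower by summed counts (95% interval 4.21 to 27.5, counting error only; adjusted p 1.13e-08).

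DTX3L, a ubiquitin ligase, read 25.8, 22.6 and 22.7 CPM in wild type, 6.44, 5.98 and 7.34 in ARID2, 14.7, 17.4 and 18.7 in SMARCA4 2878-4, 24.4, 25.99 and 27.8 in ARID1B and 24.1, 29.25 and 27.4 in SMARCA2. Its partner PARP9 read 7.96, 8.32 and 6.51 CPM in wild type, 1.83, 1.85 and 1.13 in ARID2, 3.71, 3.39 and 4.94 in SMARCA4 2878-4, 13.5, 12.4 and 13.9 in ARID1B and 7.37, 10.45 and 10.25 in SMARCA2. PARP14 read 48.7, 42.1 and 36.1 CPM in wild type, 25.8, 22.5 and 23.2 in ARID2, 30.7, 31.8 and 35.4 in SMARCA4 2878-4, 46.9, 46.5 and 42.4 in ARID1B and 47.3, 51.8 and 48.25 in SMARCA2. The ARID2 clone stood below these other groups in all 3 genes, and its libraries overlapped no wild-type library. DTX3L fell by 1.83 (SE 0.12, adjusted p 2e-19) and PARP9 fell by 2.23 (SE 0.28, adjusted p 4.84e-09) there, and both calls held without each library, whereas PARP14 differed by -0.81 (SE 0.10, adjusted p 9.16e-10) and did not reach the fold minimum. Neither DTX3L nor PARP9 was called in any other clone.

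OAS3, another 2-5A synthetase, read 13.1, 15.2 and 14.4 CPM in wild type, 6.49, 6.80 and 7.15 in ARID2, 5.96, 5.20 and 5.74 in SMARCA4 2878-4, 14.99, 14.4 and 18.4 in ARID1B and 17.2, 18.5 and 18.9 in SMARCA2. IFI6, a membrane protein that limits cell death and flavivirus replication, read 3.03, 2.97 and 3.345 CPM in wild type, 2.885, 2.61 and 1.32 in ARID2, 1.24, 1.07 and 1.40 in SMARCA4 2878-4, 5.63, 7.85 and 6.76 in ARID1B and 5.16, 6.09 and 4.77 in SMARCA2. Both lay below all wild-type libraries in SMARCA4 2878-4, with differences of -1.315 for OAS3 (SE 0.17, adjusted p 1.92e-09) and -1.31 for IFI6 (SE 0.31, adjusted p 0.000456), both called. OAS3 also fell in ARID2 by 1.05 (SE 0.16, adjusted p 1.09e-06), a call that ended at -0.996 without wild-type replicate 2. IFI6 rose in ARID1B by 1.12 (SE 0.27, adjusted p 0.00108), a call that ended at 0.99 without ARID1B replicate 2.

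IRF1, a transcription factor of the interferon response, read 9.75, 9.04 and 9.36 CPM in wild type, 6.20, 5.22 and 4.61 in ARID2, 7.14, 7.66 and 5.74 in SMARCA4 2878-4, 6.82, 9.54 and 7.42 in ARID1B and 10.2, 8.725 and 7.485 in SMARCA2. SAMD9, a host restriction factor of poxviruses, read 0.280, 0.180 and 0.181 CPM in wild type, 0.0962, 0.163 and 0.04705 in ARID2, 0.169, 0.0929 and 0.3265 in SMARCA4 2878-4, 2.16, 2.06 and 2.13 in ARID1B and 0.469, 0.5925 and 0.312 in SMARCA2. IRF1 differed in ARID2 by -0.80 (SE 0.14, adjusted p 1.87e-05), short of the fold minimum, and SAMD9 rose in ARID1B by 3.30 (SE 0.36, adjusted p 4.59e-11). SAMD9 was under 1 CPM in every library of 23 groups, wild type among them. It had 4 higher and 0 lower calls, and from its wild-type level a fall could hardly be called. Of the 9 genes, 5 were called lower in ARID2 (3.56% of all genes), 4 in SMARCA4 2878-4 (5.28%) and 2 in SMARCA4 2878-6 (4.72%), and all 9 had a negative fold change in each of these clones. In ARID1B 3 were called higher (3.46%) and in SMARCA2 2 (0.774%). Among these, CMPK2 in ARID1B (1.005, SE 0.27, adjusted p 0.00333) ended without ARID1B replicate 3 (0.755) or wild-type replicate 3 (0.765) and, with the replicate number as a replicate block, at 0.998. CMPK2 in SMARCA2 (1.07, SE 0.27, adjusted p 0.00711) ended without SMARCA2 replicate 3 (0.96) or wild-type replicate 3 (0.84).

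**Figure D3:**
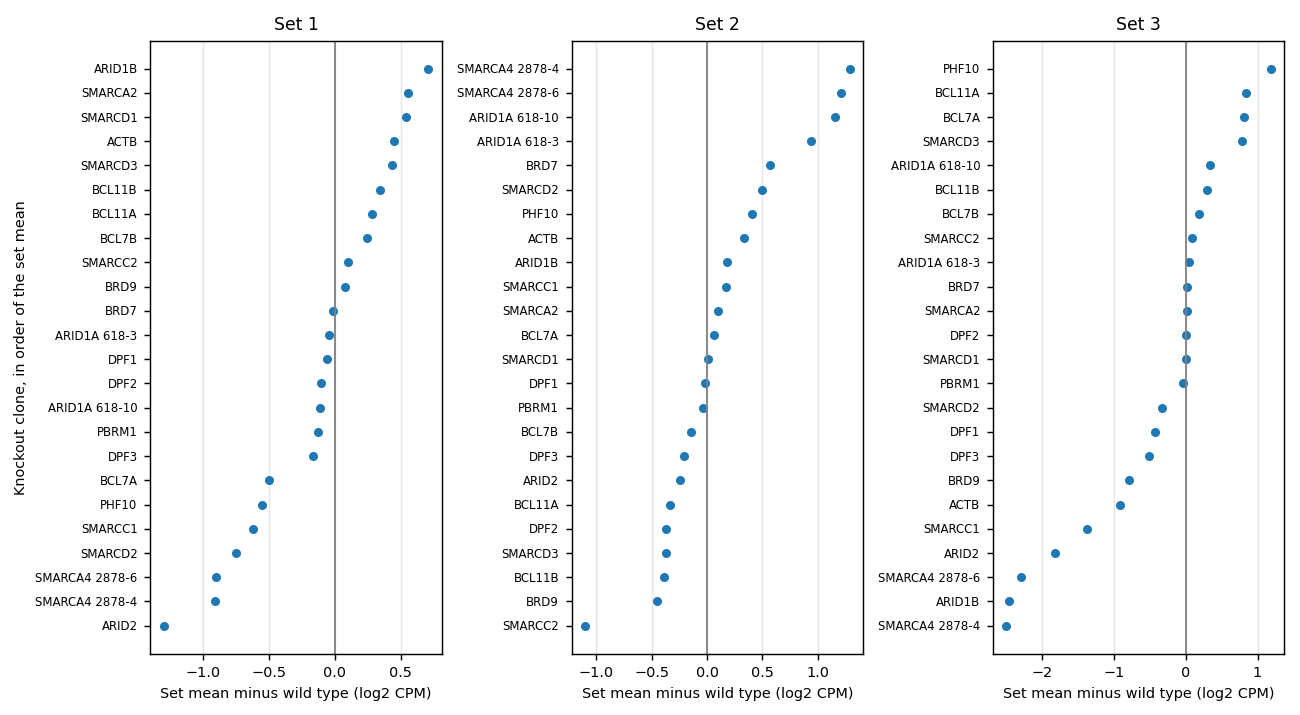
Mean log2 CPM of each co-moving set in the 24 clones minus that in wild type (x axis, log2), with clones in order of the value and a line at wild type. Set 1 runs from -1.30 (ARID2) to 0.71 (ARID1B), set 2 from -1.10 (SMARCC2) to 1.29 (SMARCA4 2878-4) and set 3 from -2.50 (SMARCA4 2878-4) to 1.19 (PHF10).

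The IFIT genes, whose products bind foreign RNA ends and stop its translation, moved the other way in the SMARCA4 clones: the mean of their set lay 1.29 above wild type in 2878-4 and 1.21 in 2878-6, then 1.15 and 0.94 in the ARID1A clones 618-10 and 618-3, and lowest in SMARCC2 (-1.10) and BRD9 (-0.45). IFIT1 read 13.8, 12.1 and 9.85 CPM in wild type, 40.01, 41.2 and 41.3 in SMARCA4 2878-4, 33.5, 41.3 and 34.9 in 2878-6, 27.8, 32.1 and 27.3 in ARID1A 618-10, 34.5, 34.6 and 30.8 in 618-3, 6.70, 8.425 and 8.81 in SMARCC2 and 10.2, 8.85 and 8.67 in BRD9. IFIT2 read 1.74, 1.17 and 1.085 CPM in wild type, 3.43, 3.48 and 5.41 in 2878-4, 4.10, 4.56 and 4.74 in 2878-6, 5.25, 5.16 and 5.87 in 618-10, 5.06, 5.38 and 5.25 in 618-3, 0.700, 0.815 and 0.739 in SMARCC2 and 0.509, 0.693 and 0.982 in BRD9. The SMARCA4 and ARID1A libraries lay above all wild-type libraries for both genes, and the SMARCC2 libraries below. IFIT1 rose by 1.80 in 2878-4 (SE 0.15, adjusted p 1.24e-15), 1.63 in 2878-6 (SE 0.15, adjusted p 5.84e-14), 1.28 in 618-10 (SE 0.15, adjusted p 3.09e-10) and 1.46 in 618-3 (SE 0.15, adjusted p 4.74e-12). IFIT2 rose by 1.66 (SE 0.26, adjusted p 3.13e-07), 1.77 (SE 0.26, adjusted p 7.76e-08), 2.03 (SE 0.26, adjusted p 4.15e-09) and 1.96 (SE 0.26, adjusted p 1.07e-08) in the same order. These 8 calls held in every alternative run.

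IFIT3 read 2.97, 2.07 and 3.12 CPM in wild type, 5.06, 3.99 and 5.36 in SMARCA4 2878-4, 3.56, 4.465 and 6.33 in 2878-6, 0.767, 0.761 and 0.568 in SMARCC2 and 2.29, 1.55 and 1.36 in BRD9. IFIT5 read 27.9, 26.7 and 26.8 CPM in wild type, 31.25, 33.7 and 34.1 in 2878-4, 35.4, 30.9 and 34.1 in 2878-6, 14.1, 18.5 and 20.45 in SMARCC2 and 27.9, 23.6 and 25.6 in BRD9. EPSTI1, which stands on another chromosome than the IFIT genes, read 0.280, 0.809 and 0.181 CPM in wild type, 1.24, 2.14 and 1.59 in 2878-4, 1.24, 1.29 and 1.41 in 2878-6, 0.0333, 0.0544 and 0.0568 (1 count each, the lowest value listed) in SMARCC2 and 0.254, 0.267 and 0.273 in BRD9. All 5 genes of the set had positive fold changes in both SMARCA4 clones and negative ones in SMARCC2, with unequal sizes. In 2878-4 IFIT3 and IFIT5 differed by 0.85 (SE 0.23, adjusted p 0.00229) and 0.31 (SE 0.09, adjusted p 0.00656), under the fold minimum, and EPSTI1 rose by 1.96 (SE 0.35, adjusted p 6.71e-06). Without wild-type replicate 2, its highest wild-type library, that value was 2.87. Of the 5 genes, 3 were called higher in each SMARCA4 clone (5.99% and 5.53% of all genes).

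In SMARCC2, where 3.2% of all genes were called lower, IFIT3 fell by 1.965 (SE 0.27, adjusted p 5.08e-08), EPSTI1 was at least 2.93-fold lower (wild-type mean against 3 counts per library; 1.59-fold without wild-type replicate 2) and IFIT5 differed by -0.66 (SE 0.095, adjusted p 1.59e-07). Transcript GC content was 41.6% for IFIT1, 41.8% for IFIT2, 44.2% for IFIT3 and 37.4% for IFIT5, against a median of 50.1% over genes tested, and the part of the GC trend in the SMARCC2 values was not tested. Without SMARCC2 the second set split into IFIT1, IFIT2 and IFIT5 on one side and IFIT3 and EPSTI1 on the other, with a median r of 0.612 over the 5 genes in place of 0.655. For the first set that value was 0.632 without SMARCC2. Without both SMARCA4 clones and ARID2 it was 0.491, and the first set split into IFIH1, OAS3, IFI6 and CMPK2, the neighbours PARP9, PARP14 and DTX3L with SAMD9, and IRF1 alone.

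The IFITM genes formed the third set, and IFITM1 and IFITM2 fell in the SMARCA4 clones, where the IFIT set was highest. IFITM1 read 9.30, 5.215 and 5.56 CPM in wild type, 26.8, 29.3 and 20.95 in PHF10, 21.9, 25.7 and 12.6 in BCL11A, 0.0562, 0.0929 and 0.0933 in SMARCA4 2878-4 and 0.2705, 0.264 and 0.142 in ARID1B. IFITM2 read 1.51, 1.48 and 1.81 CPM in wild type, 2.90, 4.61 and 3.20 in PHF10, 0.971, 1.73 and 1.86 in BCL11A, 0.169, 0.325 and 0.3265 in SMARCA4 2878-4 and 0.379, 0.158 and 0.142 in ARID1B. IFITM3 read 0.280, 0.405 and 0.362 CPM in wild type, 0.701, 0.637 and 0.337 in PHF10, 0.971, 0.840 and 0.8025 in BCL11A, 0.393, 0.3715 and 0.187 in SMARCA4 2878-4 and 0.325, 0.211 and 0.0945 in ARID1B. The IFITM1 and IFITM2 libraries of SMARCA4 2878-4 and ARID1B lay below all wild-type libraries, whereas IFITM3, under 1 CPM in all these groups, overlapped wild type except in BCL11A. IFITM2 fell in 6 clones, with differences of -2.81 in ARID1B (SE 0.45, adjusted p 1.37e-06) and -2.48 in SMARCA4 2878-4 (SE 0.43, adjusted p 3.73e-06), and 5 of the 6 calls held in every alternative; that in ARID2 ended without ARID2 replicate 1 or 3 (adjusted p 0.0565 and 0.0789). It was -2.04 without replicate 2. The call for IFITM3 in BCL11A (1.28, SE 0.43, adjusted p 0.0405) ended without any 1 of the 3 BCL11A or 3 wild-type libraries, with adjusted p between 0.0564 and 0.122.

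IFITM1 was the only member that met the definition of an on-off gene, with every library of at least 1 group under 1 CPM and every library of at least 1 other group over 10 CPM. By the same definition 294 of all 16159 genes tested (1.82%) were on-off, and 1 of the 33 members is 3.03%. It was under 1 CPM in every library of 4 groups (both SMARCA4 clones, ARID2 and ARID1B) and over 10 in every library of 3 (PHF10, BCL11A and SMARCD3). In ARID2 it read 0.192, 0.109 and 0.188 CPM, in SMARCA4 2878-6 0.108, 0.0496 and 0.137 and in SMARCD3 29.85, 13.6 and 13.9. The other 18 groups lay between, among them SMARCC1 at 1.42, 1.44 and 0.630 CPM, ACTB at 3.23, 2.68 and 1.36 and BRD9 at 2.75, 1.81 and 2.945, so that levels between both ends occurred. In SMARCA4 2878-4 (1, 2 and 2 counts) IFITM1 was 79.1 times lower than in wild type by summed counts (95% interval 33.6 to 245, counting error only; adjusted p 5.95e-13), and in 2878-6 65.8 times (30.0 to 180; adjusted p 8.99e-13). It fell in ARID2 (-5.27, SE 0.54, adjusted p 1.26e-11), in ARID1B (-4.86, SE 0.52, adjusted p 2.84e-11) and in SMARCC1 (-2.51, SE 0.40, adjusted p 1.3e-06), and rose by 1.95 in PHF10 (SE 0.33, adjusted p 2.02e-05). Of the 11 calls, 8 held in every alternative. The call in BRD9 ended at -1.23 (adjusted p 0.0622) without BRD9 replicate 2 and -1.11 (adjusted p 0.0819) without wild-type replicate 1, and that in SMARCD3 at 1.02 (adjusted p 0.0689) without SMARCD3 replicate 1. The call in BCL7A, where libraries overlapped, ended without BCL7A replicate 1 or 2 or wild-type replicate 2 or 3 (adjusted p 0.0965, 0.108, 0.132 and 0.0985).

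BST2 was near 1 level in all groups but 2. It read 198, 204 and 227 CPM in the wild-type libraries, 1.07, 2.50 and 1.28 in BCL7B and 50.6, 53.4 and 52.2 in PHF10. In the other 22 clones the group mean lay between 152 and 245 CPM. BST2 fell in BCL7B (-7.01, SE 0.16, adjusted p 9.17e-41) and in PHF10 (-2.005, SE 0.115, adjusted p 2.27e-21), and both calls held in every alternative. The BCL7B libraries stayed above 1 CPM, with 21, 55 and 30 counts, so BST2 did not meet the on-off definition, although its group means spanned the widest range of any member (7.25 on the log2 scale, against 7.15 for IFITM1). In the same BCL7B clone OAS2 was 16.3 times lower by summed counts (95% interval 7.64 to 41.5, counting error only; 3, 2 and 2 counts), whereas ISG15 rose by 1.735 (SE 0.145, adjusted p 7.49e-15). Of the 33 members, 3 were called higher (9.09%, against 3.14%) and 2 lower (6.06%, against 2.98%) in BCL7B.

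OAS2 was the member called in most clones and belonged to no set. It read 2.30, 1.35 and 1.72 CPM in wild type, 10.3, 9.26 and 7.17 in SMARCA2, 8.65, 9.07 and 6.06 in ACTB, 7.03, 4.32 and 4.16 in ARID1B and 0.281, 0.186 and 0.0933 in SMARCA4 2878-4. The first 3 clones lay above all wild-type libraries and the last below them. OAS2 rose by 2.32 in SMARCA2 (SE 0.30, adjusted p 2.79e-08), 2.17 in ACTB (SE 0.30, adjusted p 4.81e-08) and 1.54 in ARID1B (SE 0.30, adjusted p 4.82e-05). Of the 15 clones where it fell, 12 held in every alternative. The call in BRD9 ended without BRD9 replicate 2 or 3 or wild-type replicate 1 (adjusted p 0.0774, 0.0778 and 0.136), that in SMARCC2 without SMARCC2 replicate 1 or wild-type replicate 1 (-0.997 and -0.94) and that in SMARCA4 2878-6 without its replicate 3 (-0.998). No group was over 10 CPM in every library, and 13 were under 1 CPM in every library; with limits of 0.5 and 5 CPM OAS2 counted as on-off too.

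**Figure D4:**
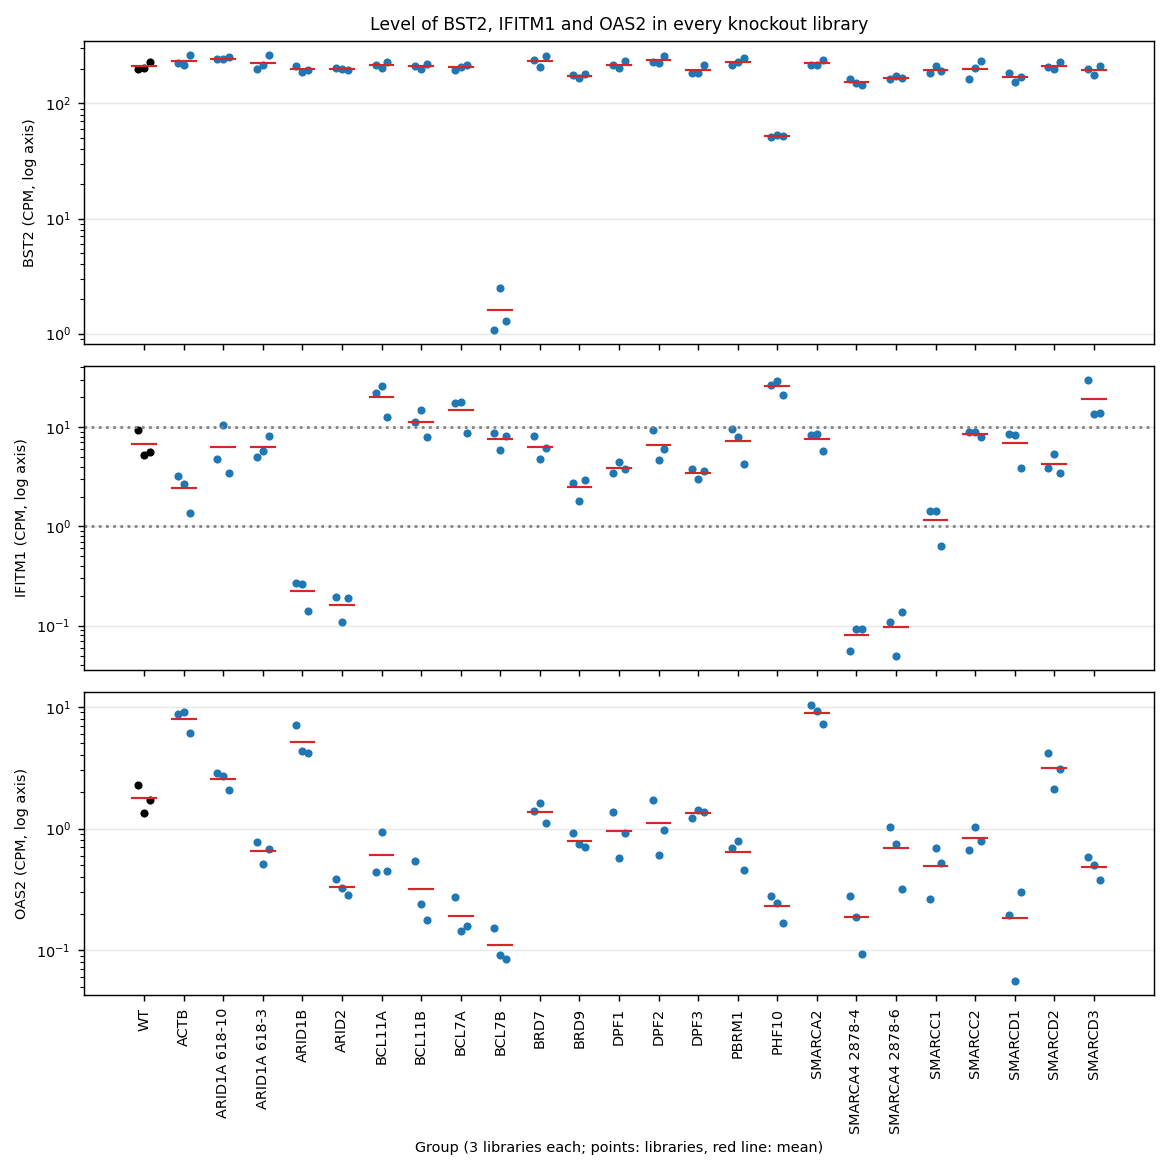
CPM of BST2, IFITM1 and OAS2 in each of the 75 knockout libraries on log axes, with 3 points and a mean line a group. BST2 is level except in BCL7B (1.07 to 2.50 CPM) and PHF10 (50.6 to 53.4), whereas IFITM1 and OAS2 take many levels.

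The ISG15 system (ISG15, USP18, HERC5 and HERC6) was called higher in 3 of 96 tests (3.12%, against 2.46% of all genes) and lower in 2 (2.08%, against 2.24%), shares near those of all genes. ISG15 read 7.62, 6.74 and 6.78 CPM in wild type, 29.6, 28.05 and 24.1 in SMARCA4 2878-4, 16.7, 18.6 and 14.2 in 2878-6 and 19, 24.6 and 26.9 in BCL7B. All libraries of these clones lay above wild type, and ISG15 rose by 1.98 (SE 0.145, adjusted p 1.56e-17) and 1.24 (SE 0.145, adjusted p 2.26e-10) in the SMARCA4 clones. HERC6 fell in SMARCA4 2878-4 by 1.34 (SE 0.12, adjusted p 5.88e-14), and HERC5, the ligase that attaches ISG15, fell in BCL7A by 1.07 (SE 0.12, adjusted p 7.23e-10), a call that ended at -0.94 without BCL7A replicate 3. Of the factors that drive the pathway, STAT2, IRF1 and IRF7 were called in no clone, and IRF9 fell in ARID1B, by 1.05 (SE 0.335, adjusted p 0.0151), which ended without ARID1B replicate 1 or 2 or wild-type replicate 2 (-0.95, -0.86 and -0.99). IFI35, a leucine-zipper protein that binds NMI, rose in 6 clones, of which the calls in ARID1B (1.82, SE 0.40, adjusted p 0.000282) and SMARCA4 2878-4 (1.40, SE 0.40, adjusted p 0.00414) held in every alternative. Those in ARID1A 618-10, ARID1A 618-3, BCL7B and SMARCD1 each ended without wild-type replicate 2 (adjusted p 0.0772, 0.162, 0.168 and 0.0506). MX1, the dynamin-like GTPase, was under 1 CPM in every knockout-table library, and both of its calls, in ARID1A 618-3 and ARID1B, ended without wild-type replicate 1 (adjusted p 0.118 and 0.11), among other libraries.

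Between clones of the same gene, OAS2 was the only member called. OAS2 read 2.84, 2.71 and 2.065 CPM in ARID1A 618-10 and 0.778, 0.508 and 0.676 in 618-3, a difference of -1.96 for 618-3 (SE 0.35, adjusted p 7.42e-05). It read 1.02, 0.744 and 0.319 CPM in SMARCA4 2878-6 and 0.281, 0.186 and 0.0933 in 2878-4, a difference of 1.86 for 2878-6 (SE 0.48, adjusted p 0.0128). The clones did not overlap in either pair. This is 1 of 33 members (3.03%) in each pair, against 0.817% of all genes called lower and 0.439% higher between the ARID1A clones, and 1.06% called higher and 0.786% lower between the SMARCA4 clones. The SMARCA4 difference ended without 2878-6 replicate 1 (1.49, adjusted p 0.174) or without 2878-4 replicate 2 or 3 (adjusted p 0.0538 and 0.132).

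In the double-loss table, normalised apart from the knockout table, IFITM1 was the only member called in all 5 comparisons with the wild-type control, which they share. It read 3.89 and 12.3 CPM in wild type with the control knockdown, 0.161 and 0.910 with both knockdowns, 0.109 and 0.0889 in ARID2-knockout cells, 0.0927 and 0.0837 in ARID2-knockout cells with SMARCA4 knocked down, 0.0531 and 0.132 in SMARCA4-knockout cells and 0.120 and 0.1635 in SMARCA4-knockout cells with ARID2 knocked down. Every group lay below both wild-type control libraries. In wild-type cells with both knockdowns, SMARCA4 itself still read 43.1 and 129 CPM, against 297 and 317 in the control. ARID2 read 28.5 and 27.3 CPM there, against 45.1 and 30.9. These knockdowns were thus partial at the RNA level, and their part in the IFITM1 values was not tested. IFITM1 was at least 27.2-fold lower in ARID2-knockout cells and at least 30.6-fold lower with SMARCA4 also knocked down (1 count in each library; bound at 3 counts per library, against the mean of both control libraries; adjusted p 0.005 and 0.00149). In SMARCA4-knockout cells it was 85.4 times lower by summed counts (95% interval 28.8 to 418; adjusted p 0.000791) and with ARID2 knocked down 54.6 times (21.0 to 202; adjusted p 0.00097), intervals for counting error only. These sizes depend on the control library. The bounds were 13.1- and 14.7-fold without control replicate 2 and 41.3- and 46.4-fold without control replicate 1. The ratios were 44.0 and 28.1 without replicate 2 and 139 and 88.8 without replicate 1. In wild-type cells with both knockdowns it fell by 3.88 (SE 0.665, adjusted p 0.0296), a call lost without knockdown replicate 1 (-3.15, adjusted p 0.267) or control replicate 2 (-2.825, adjusted p 0.14). The call in ARID2-knockout cells was lost without either of its libraries (adjusted p 0.0677 and 0.0911), each fit then assuming that the lone library varied like the other groups.

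Over the 5 comparisons, 3 of 145 member tests were called higher (2.07%, against 2.52% of all genes) and 9 lower (6.21%, against 2.7%). In the separate comparisons the members called higher and lower of the 29 tested were 0 and 1 for ARID2-knockout cells (0.411% and 1.16%), 0 and 4 for ARID2-knockout cells with SMARCA4 knocked down (4.22% and 5.1%), 0 and 1 for SMARCA4-knockout cells (3.34% and 2.75%), 3 and 2 for SMARCA4-knockout cells with ARID2 knocked down (4.34% and 4.21%) and 0 and 1 for wild-type cells with both knockdowns (0.295% and 0.267%), again with the percentages of all genes. The 3 rises were in SMARCA4-knockout cells with ARID2 knocked down (10.3%, against 4.34%). There ISG15 read 20.75 and 20.4 CPM against 9.95 and 8.33 in the wild-type control, and rose by 1.13 (SE 0.21, adjusted p 0.00517). IFIT1 read 23.7 and 19.05 against 9.63 and 9.32 and rose by 1.13 (SE 0.29, adjusted p 0.0259), and IFIT3 read 3.12 and 3.19 against 0.893 and 0.495 and rose by 2.10 (SE 0.52, adjusted p 0.022). None of these libraries overlapped. ISG15 held without each library, IFIT1 was lost without any 1 of the 4 libraries of its comparison (adjusted p between 0.065 and 0.171), and IFIT3 without either knockdown library (adjusted p 0.0929 and 0.089) or control replicate 2 (adjusted p 0.139). In SMARCA4-knockout cells with the control knockdown IFIT1 read 16.8 and 18.65 CPM (0.86, SE 0.29, adjusted p 0.104) and ISG15 18.65 and 18.45 (0.975, SE 0.21, adjusted p 0.0154), which did not pass both thresholds. Of the 9 lower calls, 5 were those of IFITM1, and those of OAS2 (2), CMPK2 and IFI35 were each lost without wild-type control replicate 2 (adjusted p 0.194 and 0.189 for OAS2, 0.21 for CMPK2 and 0.0652 for IFI35).

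Inside a knockout, 1 member was called after the knockdown. DTX3L read 14.9 and 13.7 CPM in ARID2-knockout cells with the control and 40.8 and 31.5 with SMARCA4 knocked down, and rose by 1.28 (SE 0.20, adjusted p 0.00808; 1 of 29 members, 3.45%, against 1.7% of all genes, with 0 members and 1.18% of all genes lower). The call ended without control replicate 1 or 2 (adjusted p 0.0666 and 0.0915) or knockdown replicate 1 (adjusted p 0.052). PARP9 differed in the same direction by 0.97 (SE 0.365, adjusted p 0.152), from 3.61 and 4.36 CPM to 10.9 and 5.52. In wild-type cells with both knockdowns DTX3L read 44.03 and 36.7 CPM against 25.8 and 23 in the control (0.71, SE 0.19, adjusted p 0.132). When ARID2 was knocked down in SMARCA4-knockout cells, edgeR's quasi-likelihood test and DESeq2 called 0 of 29 members and 0 had an unadjusted p under 0.05, while 0.0205% of all genes were called higher and 0% lower. ARID2 itself read 27.9 and 23.7 CPM there against 50.3 and 31.3 with the control, and SMARCA4 read 10.7 and 28.3 CPM in ARID2-knockout cells with its knockdown against 284 and 337 without.

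**Figure D5:**
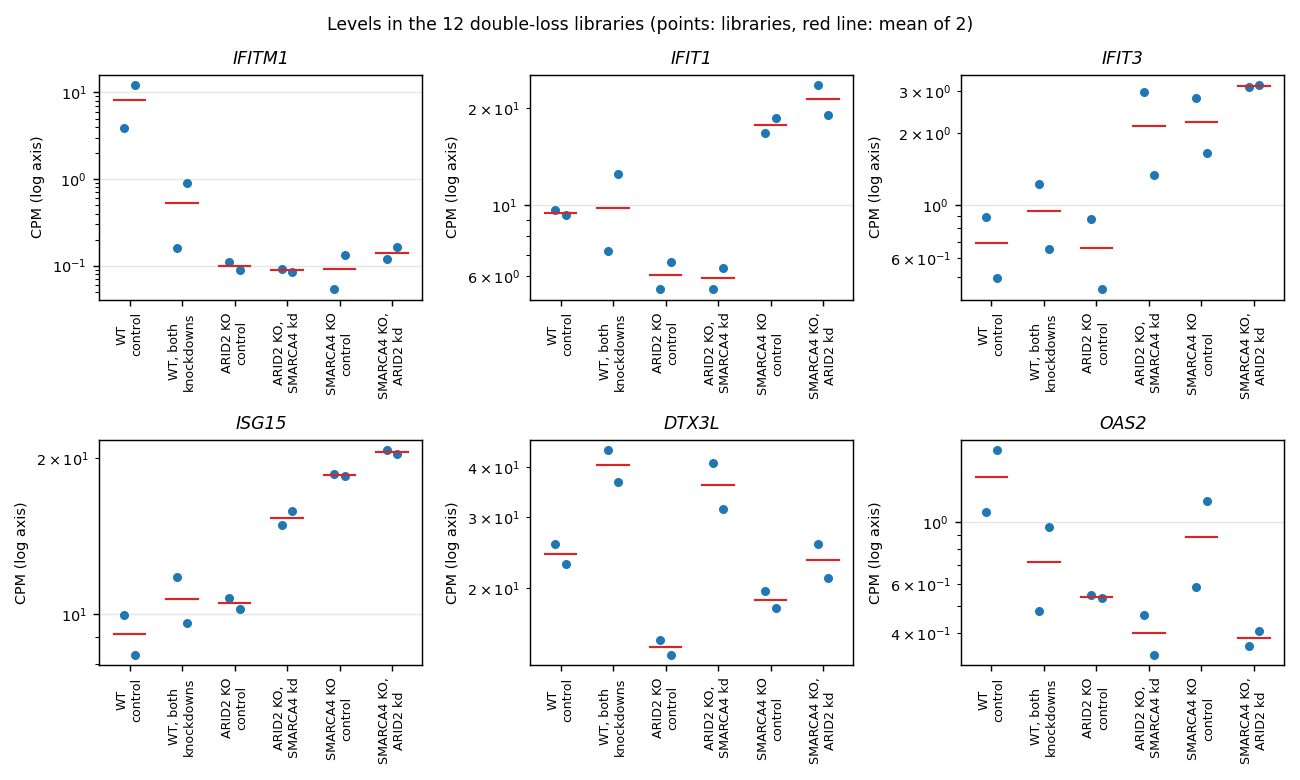
CPM of 6 members in each of the 12 double-loss libraries on log axes, with a red line at the mean of 2. IFITM1 is at 3.89 and 12.3 CPM in the wild-type control and below 1 in all other groups, and ISG15 and IFIT1 are highest in the SMARCA4-knockout groups.

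The rest of the pathway was read from a list of ligands, receptors, kinases, sensors, regulators and further interferon-stimulated genes. Of 24 interferon genes listed, the 21 in the table were all under 1 CPM in every knockout library, the highest value being 0.156 CPM, and 0 passed the filter. In the 264 tests of 6 receptor genes and 5 kinases and STATs, edgeR's quasi-likelihood test and DESeq2 each called 0, while 73 had an unadjusted p under 0.05 and 38 an adjusted p of at most 0.05, none reaching a change of 1 on the log2 scale (largest 0.911). Over the 59 genes of the list that passed, 39 of 1416 tests were called higher and 62 lower (against 2.46% and 2.24% of all genes). Of the 12 sensing genes that passed, 6 held 26 higher and 29 lower calls, and of 30 further interferon-stimulated genes 12 held 11 higher and 31 lower calls. With 24 tests a gene, the further genes' share of higher calls lay below the 2.46% of all genes. Their share of lower calls and both shares of the sensing genes lay above those of all genes.

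The sensing genes held 26 of the 39 higher calls, of which MB21D1 held 11 and the kinase gene IKBKE 8. IKBKE was also called lower in 6 clones. MB21D1, the DNA sensor cGAS, was called in 17 clones (11 higher, 6 lower) and read 8.91, 8.86 and 7.91 CPM in wild type, 38.1, 35.4 and 35.3 in SMARCA4 2878-6 and 0.221, 0.0502 and 0.102 in DPF2. It rose by 2.09 in SMARCA4 2878-6 (SE 0.18, adjusted p 1.63e-14) and fell by 6.00 in DPF2 (SE 0.32, adjusted p 2.13e-22). TMEM173 (STING), its adaptor, was called in 11 clones (3 higher, 8 lower) and read 2.07, 1.57 and 1.90 CPM in wild type, 6.80, 5.75 and 5.75 in ACTB (1.74, SE 0.295, adjusted p 6.02e-06) and 0.111, 0.203 and 0.104 in ARID1A 618-3 (-3.68, SE 0.46, adjusted p 3.06e-09). NMI was called lower in 9 clones and higher in 0, and read 4.65, 4.45 and 4.79 CPM in wild type and 0.0458, 0.0481 and 0.05225 in BCL7A, where each library held 1 count and NMI was at least 31.7-fold lower. For these 3 genes the named clones overlapped no wild-type library. SP110, a nuclear body protein, was called lower in 6 clones and read 6.95, 2.74 and 4.02 CPM in wild type and 0.433, 0.326 and 0.376 in ARID2 (-3.54, SE 0.325, adjusted p 2.49e-13). C19orf66 (shiftless) rose in 5 clones and fell in 1, and read 5.32, 3.24 and 2.62 CPM in wild type and 12.2, 13.7 and 11.7 in SMARCD1 (1.73, SE 0.31, adjusted p 2.29e-05). DDX60, a helicase, rose in ARID1B (6.44, 5.38 and 4.54 CPM; 1.15, SE 0.285, adjusted p 0.00136) and fell in ARID2 (1.15, 1.36 and 0.894; -1.095, SE 0.32, adjusted p 0.0113), with 2.86, 2.70 and 1.81 in wild type.

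Among all genes tested, the patterns most like that of BST2 by Pearson's r over the 25 group means were those of KCNG1 (0.857), SPG7 (0.833) and AC145212.1 (0.817). Because BST2 was near level outside BCL7B and PHF10, its r values rest mainly on those clones. For IFITM1 they were those of ICOSLG (0.875), IFITM2 (0.872) and NRXN2 (0.866). The spread between group means, divided by the spread between libraries of a group, had a median of 2.24 over the 33 tested members and 1.07 over all genes tested. It was 8.43 for BST2, 4.55 for IFITM1, 3.95 for DTX3L, 3.82 for IFIT1 and 3.65 for IFIH1, and under 1 for MX1, IFI27, ISG20, IRF9, IFITM3, PLSCR1 and IRF7.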

How the data were processed

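Poly-A RNA of 87 HAP1 libraries was read in 50-base single reads, per the labels' protocols. The deposited gene tables hold estimated counts, whole numbers of at least 1 in every cell; Trimmomatic, Bowtie, Picard and DESeq2 and the builds GRCh37 and hg19 are named by the submitters' processing notes, without versions, and no source used here gives the counting tool, annotation or strand setting. The authors' log2 TPM table, quantile-normalized per its name, was used for levels per length (71 columns, 23 clones; SMARCC2 not in it). In all, 8 columns that matched no sample were left out.

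Each table was fitted on its own with edgeR 4.0.16 (R 4.3.3; filterByExpr, TMM, quasi-likelihood F-test, all groups in 1 fit, no replicate block). CPM is the count over the library total, and correlations used TMM log2 CPM with a prior count of 2. DESeq2 1.42.0, limma 3.58.1 on the log2 TPM values, RLE factors, no filter, only the groups compared, a replicate block and each library left out were alternatives. On simulated counts for ARID2 against wild type (16159 genes) the test recovered 81% of changes of 1.5 on the log2 scale and 97% of changes of 3, with 4 false calls. In the double-loss table (ARID2-knockout against wild-type cells, 14601 genes) it recovered 73% and 96%, with 3. The simulated counts followed the model of the test, and the changed genes were drawn from all genes tested. These shares therefore need not hold for members under 1 CPM. No libraries of the same group were duplicates: replicate pairs differed by a chi-square per degree of freedom of at least 6.80. Libraries of different groups were not compared in this way.

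The members and lists were chosen with earlier results of these data known. Values per library are given for set members in wild type and the 2 highest and 2 lowest clones by set mean, for on-off genes, BST2 and IFITM1, and for the 6 pathway genes called in most clones with at least 5 CPM in a group (1 further pathway gene is not reported here); other values named were chosen after they were seen. Replicate numbers were not taken to pair libraries (correlation of same-numbered deviations with wild type: median 0.026, from -0.31 to 0.443, in the knockout table).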

Additional observations from a re-analysis of the deposited data

Results flagged for a closer look

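The clones of 1 gene differed in OAS2. It was lower in ARID1A 618-3 than in 618-10 (-1.96 on the log2 scale, SE 0.35, adjusted p 7.42e-05, edgeR's quasi-likelihood test; 3 of 3 libraries below all of the other clone), a difference between clones that held in every alternative. OAS2 was higher in SMARCA4 2878-6 than in 2878-4 (1.86, SE 0.48, adjusted p 0.0128; 3 of 3 libraries above all of the other clone), which ended without 2878-6 replicate 1 (adjusted p 0.174) or 2878-4 replicate 2 (0.0538) or 3 (0.132) and with only the groups compared (adjusted p 0.167).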

How the results depend on the processing

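Of the 124 single calls none changed sign in any alternative. Over the other settings 671 of 727 values stayed on their side of both thresholds and 56 did not; over left-out libraries 602 of 718 did and 116 did not. Of the 109 knockout calls 71 held in every alternative, and of the 12 double-loss calls 4 did. DESeq2 called 102 in the knockout table, all 102 among the 109, and limma on log2 TPM 99, of which 96 were shared. With the adjusted p alone, 106 member tests were called higher and 119 lower in the knockout table, 4 between clones and 256 on the pathway list. With only the groups compared, 4 were called lower in the double-loss table, 1 between clones and 0 inside a knockout. With a replicate block, 46 were higher and 63 lower in the knockout table and 123 of 124 single calls held, while the double-loss table gave 6 higher and the knockdowns inside a knockout 2; with 2 pairs a comparison the numbers were not taken as a pairing there (median correlation 0.435). With limits of 0.5 and 5 CPM, 2 members were on-off. Without both SMARCA4 clones and ARID2, chosen after seeing the data, the largest set had 5 genes. The cause of these shifts was not tested.

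Leaving out each library in turn gave 39 to 49 higher and 56 to 69 lower calls in the knockout table, 1 to 4 higher and 6 to 10 lower in the double-loss table, 1 to 3 between clones, 0 to 3 inside a knockout and 93 to 105 on the pathway list. The double-loss higher calls fell to 1 without wild-type control replicate 2 or either library of SMARCA4-knockout cells with ARID2 knocked down, and calls inside a knockout rose to 3 without replicate 2 of ARID2-knockout cells with SMARCA4 knocked down. Members under 1 CPM rest on few counts, and changes in them may not be detectable at this depth.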
